A study of Mus musculus with 16 samples.

Results

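The genes described are 10 markers of mesothelial and epithelial cells, measured by RNA sequencing in paired Tim-4+ and Tim-4- tumor-associated macrophages (TAMs) of the mouse peritoneal cavity. They are the 6 mesothelial genes *Msln*, *Upk1b*, *Upk3b*, *Wt1*, *Lrrn4* and *Muc16* and the 4 keratin genes *Krt7*, *Krt8*, *Krt18* and *Krt19*. They were chosen by name with earlier results of these data known, and the sets are kept apart. They are 10 of the 55604 genes counted, and all 10 are among the 16861 genes with enough reads to be tested (at least 10 counts in at least 4 libraries). The macrophages came from C57BL/6 mice bearing ID8, a mouse cancer line derived from ovarian surface epithelium that grows in the peritoneum. The mice of the study were female and 6 to 8 weeks old, and the macrophages for sequencing were taken 6 to 7 weeks after inoculation. There were 4 Tim-4+ and 4 Tim-4- libraries, numbered as pairs 793, 784, 783 and 779, and values below are given in that order. All mice bore the tumor, the labels name no other treatment, and no library without tumor was analysed here. The subsets are bead-enriched fractions of peritoneal wash cells left after a Ficoll step meant to deplete tumor cells: the Tim-4+ fraction was selected on Tim-4, and the Tim-4- fraction on F4/80 among cells without Tim-4. The labels do not say whether a number stands for 1 mouse or for pooled mice, so the p-values measure the spread between these pairs.

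Mesothelial cells form the sheet that lines the peritoneal cavity and covers its organs, and the surface of the ovary is covered by a closely related epithelium. They carry keratins like other simple epithelia, and are recognised besides by a few surface glycoproteins and transcription factors. Keratins are the intermediate filament proteins of epithelial cells, built from pairs of a type I and a type II chain. Macrophages are not known for either set of genes. The same genes are shared by mesothelial cells and by many ovarian cancer cells, so they do not tell these cell types apart.

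Promoters of the 3 keratin genes for which RefSeq sequence was at hand are shown first, followed by that of the mesothelial gene *Upk3b*. The keratins come first because *Krt8* and *Krt18* had the most alike patterns over the libraries of any 2 members. Each window runs from 250 bases before to 50 bases after the RefSeq transcription start (GRCm38.p6), 5′ to 3′ on the gene's strand, and capitals mark a TATA box (TATAAA) or a GC box (GGGCGG) on either strand.
*Krt8*, chr15:102004293-102004592, minus strand: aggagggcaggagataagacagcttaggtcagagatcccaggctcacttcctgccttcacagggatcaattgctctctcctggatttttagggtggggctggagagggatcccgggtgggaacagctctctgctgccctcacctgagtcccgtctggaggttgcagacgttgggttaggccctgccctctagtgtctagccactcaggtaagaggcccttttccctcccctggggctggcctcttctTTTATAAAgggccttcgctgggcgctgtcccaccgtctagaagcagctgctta
*Krt18*, chr15:102027966-102028265, plus strand: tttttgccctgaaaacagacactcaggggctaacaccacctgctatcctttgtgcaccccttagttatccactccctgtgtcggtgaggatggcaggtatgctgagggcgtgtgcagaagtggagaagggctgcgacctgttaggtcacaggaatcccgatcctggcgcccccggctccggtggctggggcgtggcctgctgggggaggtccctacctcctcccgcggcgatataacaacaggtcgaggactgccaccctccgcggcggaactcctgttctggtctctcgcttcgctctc
*Krt7*, chr15:101412153-101412452, plus strand: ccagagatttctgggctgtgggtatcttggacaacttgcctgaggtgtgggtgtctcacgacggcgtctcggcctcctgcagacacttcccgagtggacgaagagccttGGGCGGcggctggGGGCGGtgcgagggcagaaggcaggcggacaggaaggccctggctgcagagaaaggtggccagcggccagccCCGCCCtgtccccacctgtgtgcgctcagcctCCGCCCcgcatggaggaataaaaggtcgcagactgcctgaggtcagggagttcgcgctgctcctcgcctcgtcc
*Upk3b*, chr5:136038246-136038545, plus strand: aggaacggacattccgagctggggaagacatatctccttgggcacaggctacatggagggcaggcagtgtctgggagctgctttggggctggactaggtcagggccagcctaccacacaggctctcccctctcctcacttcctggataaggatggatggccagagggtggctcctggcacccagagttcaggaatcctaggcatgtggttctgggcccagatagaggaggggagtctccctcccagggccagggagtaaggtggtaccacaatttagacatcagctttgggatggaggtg
Windows of 6 of the 10 members were matched (these 4, *Lrrn4* and *Muc16*). The *Krt8* window held TATAAA, with an overlapping match on the other strand, and no other member window did, while 13.6% of all 32851 promoter windows held it. These matches, at bases 248 to 255 of the window, span the RefSeq start, which follows base 250. They are matches of letters, and their use as a TATA box was not tested. The *Krt7* window held 4 GC boxes and no other member window held one, against 35.7% of all windows. The CCAAT box (letters CCAAT) was in 0 of the 6 member windows and in 37.4% of all windows. An AP-1 motif, written TGANTCA, was in 0 of 6 and in 7.81%. An EGR/WT1 motif, written GCGTGGGNG, was in 0 of 6 and in 1.9%. None of the 5 motifs, each searched on both strands, was in both the *Krt8* and the *Krt18* window.

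The libraries held between 53527928 and 57768202 counts on genes in Tim-4+ TAMs and between 55618306 and 69594245 in Tim-4- TAMs. A level of 3 counts corresponds to 0.0431 to 0.0560 CPM, the unit of counts scaled to library size, and this floor covers counting error only. Levels below are CPM with the TMM factors of edgeR. *Timd4*, which encodes Tim-4, followed the labels in all 4 pairs, with 1160, 1743, 524 and 1166 CPM in Tim-4+ TAMs and 84.9, 11.1, 22.3 and 1.96 CPM in Tim-4- TAMs. Of 7 macrophage markers, the summed level was 8786 to 10036 CPM in Tim-4+ TAMs and 4453 to 6391 CPM in Tim-4- TAMs. The single markers differed in this. *Csf1r* had a mean of 2774 CPM in Tim-4+ and 2357 CPM in Tim-4- TAMs, and *Fcgr1* a mean of 137 and 148 CPM. A gene was called at a 2-fold or larger change with an adjusted p under 0.05, where p came from the quasi-likelihood test of edgeR, blocked on the pair, and was adjusted over all tested genes after Benjamini and Hochberg. By this rule 976 genes (5.79%) were lower and 641 (3.8%) higher in Tim-4+ TAMs. Scaled by total counts in place of TMM, 1936 were lower and 398 higher, and the median log2 fold change of all genes moved from 0.00 to -0.36.

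All 10 members were lower in Tim-4+ than in Tim-4- TAMs. The 6 mesothelial genes were all called lower (6 of 6, against 5.79% of all tested genes), with log2 fold changes of Tim-4+ over Tim-4- from -2.99 (*Upk1b*) to -1.82 (*Wt1*) and a median of -2.16. The 4 keratins were all called lower as well, between -2.40 (*Krt8*) and -2.17 (*Krt18*), with a median of -2.25. All 10 log2 fold changes were below 0, as were 50.1% of those of all tested genes, and each member had its lower level in the Tim-4+ library of each of the 4 pairs, which held for 20.2% of all tested genes. A level at least 4-fold lower in Tim-4+ TAMs was seen for 3 of the 6 mesothelial genes and for 4 of the 4 keratins, against 3.54% of all tested genes. In bulk RNA, fewer cells of a type and less RNA per cell cannot be told apart. The plot of the members in the 8 libraries shows these levels with a line joining each pair.

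**Figure D1:**
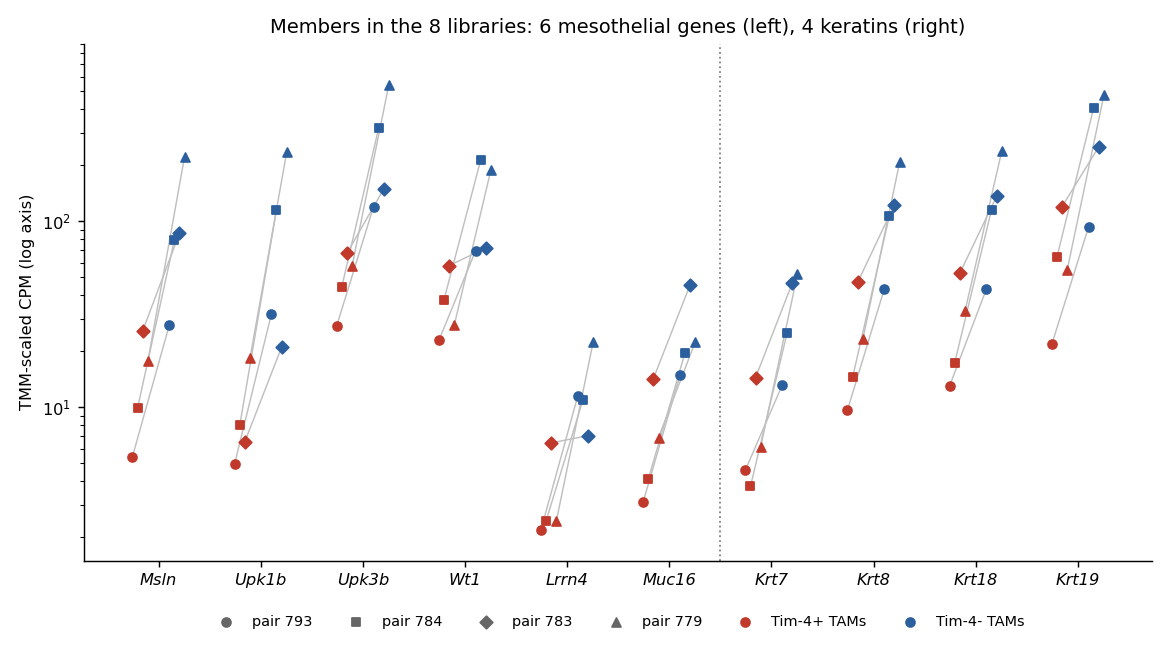
TMM-scaled CPM (log axis) of each member in the 4 Tim-4+ (red) and 4 Tim-4- (blue) libraries, with marker shape giving the pair and gray lines joining the 2 libraries of a pair. Every line rises from Tim-4+ to Tim-4- TAMs, with the flattest lines in pair 783 for *Lrrn4* (1.09-fold) and *Wt1* (1.24-fold).

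*Msln* encodes mesothelin, a surface glycoprotein of mesothelial cells and of many ovarian carcinomas (ENSMUSG00000063011.6, chromosome 17, 25748613 to 25754378, minus strand, GRCm38). Its level was 5.44, 9.92, 25.8 and 17.7 CPM in Tim-4+ TAMs and 27.6, 79.3, 86.4 and 223 CPM in Tim-4- TAMs. Every Tim-4- library was above every Tim-4+ library, by a small margin between the Tim-4- library of pair 793 and the Tim-4+ library of pair 783. *Msln* was 6.44-fold lower in Tim-4+ TAMs (log2 fold change -2.69, standard error (SE) of 0.32, adjusted p = 0.00791).

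*Muc16* encodes the very large membrane mucin that binds mesothelin (ENSMUSG00000109564.1, chromosome 9, 18495455 to 18674530, minus strand). It was at 3.11, 4.12, 14.3 and 6.88 CPM in Tim-4+ TAMs and at 14.9, 19.7, 45.7 and 22.5 CPM in Tim-4- TAMs. Pair 783 was the highest of its subset on both sides, and the subsets did not overlap. The difference was the most even of all members across pairs, 4.79-, 4.79-, 3.20- and 3.27-fold, and its standard error was the smallest (log2 fold change -1.97, SE 0.16, adjusted p = 0.00256).

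The uroplakins *Upk1b* and *Upk3b* encode membrane proteins known from the bladder lining that mesothelial cells also make. *Upk1b*, a tetraspanin (ENSMUSG00000049436.5, chromosome 16, 38773184 to 38800328, minus strand), was at 4.98, 8.0, 6.54 and 18.3 CPM in Tim-4+ TAMs and at 31.7, 115, 21.1 and 236 CPM in Tim-4- TAMs. Its subsets did not overlap, and the Tim-4- libraries of pairs 784 and 779 stood well above the other two. This was the widest difference among the members (log2 fold change -2.99, SE 0.39, adjusted p = 0.00875). *Upk3b* (ENSMUSG00000042985.7, chromosome 5, 136038496 to 136046487, plus strand) ranged from 27.5 to 67.5 CPM in Tim-4+ TAMs and from 120 to 543 CPM in Tim-4- TAMs, again without overlap (log2 fold change -2.34, SE 0.35, adjusted p = 0.0113).

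*Wt1* encodes a zinc finger transcription factor of the mesothelium and of the developing kidney and gonad (ENSMUSG00000016458.14, chromosome 2, 105126529 to 105173616, plus strand). Its level was 23.0, 38.0, 57.9 and 27.6 CPM in Tim-4+ TAMs and 69.8, 215, 71.9 and 190 CPM in Tim-4- TAMs. *Lrrn4*, which encodes a leucine-rich repeat membrane protein marking mesothelial cells (ENSMUSG00000043110.2, chromosome 2, 132868305 to 132880891, minus strand), was at 2.21, 2.46, 6.45 and 2.45 CPM in Tim-4+ TAMs and 11.5, 10.99, 7.04 and 22.4 CPM in Tim-4- TAMs. For both genes the subsets did not overlap, and the Tim-4+ library of pair 783 came close to the lowest Tim-4- library. They had the least change of the mesothelial genes relative to its error, at -1.82 on the log2 scale (SE 0.41, adjusted p = 0.0317) for *Wt1* and -1.99 (SE 0.50, adjusted p = 0.042) for *Lrrn4*. No overlap between the 4 and the 4 libraries, which held for 6 of 6 mesothelial genes, held for 5.92% of all tested genes in this direction.

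The number of mesothelial calls depended on pair 784 and on the pairing, while the fold changes moved less. Without pair 784, 1 of the 6 was called (*Muc16*) where 0.316% of all genes were called lower, with log2 fold changes of -2.70 to -1.57. Without the pair number in the fit 1 was called (*Upk3b*, adjusted p = 0.0485, the other 5 at up to 0.0819) where 0.474% of all genes were, with log2 fold changes of -3.42 to -1.86. Without the count filter 1 was called (*Muc16*) where 2.62% of all genes were called lower. *Wt1* and *Lrrn4* were also not called without pair 779 or without pair 793, while all 6 had a log2 fold change below 0 and an unadjusted p under 0.05 in each of these fits.

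*Krt8* and *Krt18* encode the type II and type I chains that pair in simple epithelia, and both genes lie on chromosome 15. *Krt8* (ENSMUSG00000049382.10, 101996698 to 102004482, minus strand) was at 9.70, 14.5, 47.1 and 23.2 CPM in Tim-4+ TAMs and at 43.3, 107, 123 and 208 CPM in Tim-4- TAMs. *Krt18* (ENSMUSG00000023043.7, 102028180 to 102032027, plus strand) was at 13.1, 17.4, 52.7 and 32.9 CPM in Tim-4+ TAMs and at 43.4, 116, 136 and 238 CPM in Tim-4- TAMs. In both, pair 793 was the lowest and pair 779 the highest Tim-4- library, and pair 783 was the highest Tim-4+ library. On the log2 scale the change was -2.40 (SE 0.30, adjusted p = 0.00875) for *Krt8* and -2.17 (SE 0.28, adjusted p = 0.00875) for *Krt18*. Of the 50-base stretches of the *Krt8* transcripts, 26.9% also occur in the pseudogene *Krt8-ps*, so reads may be split between them or set aside, and *Krt8-ps* had 0.0483 to 0.0896 counts for each *Krt8* count.

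*Krt19* encodes a small type I keratin of simple and ductal epithelia (ENSMUSG00000020911.14, chromosome 11, 100140810 to 100148665, minus strand). Its level was 21.8, 64.2, 120 and 54.5 CPM in Tim-4+ TAMs and 93.3, 408, 252 and 478 CPM in Tim-4- TAMs (log2 fold change -2.25, SE 0.34, adjusted p = 0.0116). *Krt7*, a type II keratin of simple epithelia including mesothelium (ENSMUSG00000023039.17, chromosome 15, 101411043 to 101430313, plus strand), was at 4.60, 3.76, 14.5 and 6.13 CPM in Tim-4+ TAMs and at 13.1, 25.3, 46.7 and 51.9 CPM in Tim-4- TAMs (log2 fold change -2.25, SE 0.29, adjusted p = 0.00865). The subsets overlapped for all 4 keratins and in 1 place, since the Tim-4+ library of pair 783 was above the Tim-4- library of pair 793. Within pairs no keratin overlapped in this way, and the smallest fold was 2.10, for *Krt19* in pair 783. Strand use in the counting is not given in the sources used here, and the antisense gene over *Krt7* had 0 to 15 counts and the opposite-strand gene over *Krt8* 0 to 37 counts in any library.

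The number of keratin calls depended on the same choices. In edgeR's test without pair 784, 0 of the 4 keratins were called (adjusted p 0.0592 to 0.0706, against 0.316% of all genes called lower), with log2 fold changes of -2.23 to -1.99. Without the pair number 0 were called (adjusted p 0.0614 to 0.0715, against 0.474% of all genes), with log2 fold changes of -2.35 to -2.20. All 4 had an unadjusted p under 0.05 in both fits. DESeq2 with the pair block on all pairs called 4, where it called 8.46% of all genes lower. The edgeR fit without the count filter called 2 (*Krt7* and *Krt18*), where 2.62% of all genes were called lower.

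The size of the difference varied between pairs in the same way for both sets. Summed over the 6 mesothelial genes, the level was 66.2, 107, 179 and 131 CPM in Tim-4+ TAMs and 276, 758, 382 and 1237 CPM in Tim-4- TAMs, which is 4.16-, 7.07-, 2.14- and 9.47-fold higher in Tim-4- TAMs in pairs 793, 784, 783 and 779. Summed over the 4 keratins it was 49.2, 99.8, 234 and 117 CPM in Tim-4+ TAMs and 193, 656, 559 and 975 CPM in Tim-4- TAMs, or 3.92-, 6.57-, 2.38- and 8.35-fold. Pair 783 had the smallest fold for 9 of the 10 members and pair 779 the largest for 8. Pair 783 was also the highest Tim-4+ library for 9 members, and pair 793 was the lowest Tim-4- library for 8.

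Together the 10 genes took 0.0103% to 0.0391% of the counts in Tim-4+ libraries and 0.0493% to 0.259% in Tim-4- libraries. Among the Tim-4- libraries their summed level was lowest in pair 793 (469 CPM), then 783 (940 CPM), 784 (1413 CPM) and 779 (2213 CPM). *Timd4* had the opposite order in those libraries, from 84.9 CPM in pair 793 to 1.96 CPM in pair 779. Among the Tim-4+ libraries the members were highest in pair 783 (413 CPM), where *Timd4* was lowest (524 CPM). The macrophage markers went both ways in that library. *Adgre1*, which encodes F4/80, was at 1224 CPM against 2205 to 2465 CPM in the others, and *Itgam* was also lowest there (1567 CPM against 1861 to 2143 CPM). *Cd68* (2335 CPM against 1719 to 2151 CPM), *Csf1r* (2968 CPM against 2557 to 2798 CPM) and *Mrc1* (341 CPM against 47.2 to 156 CPM) were highest there. *Mertk* and *Fcgr1* lay between the other Tim-4+ libraries. The heat map of centred levels gives every member by library. With 4 libraries in each subset no relation was computed, and the part of these markers in the result was not tested.

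**Figure D2:**
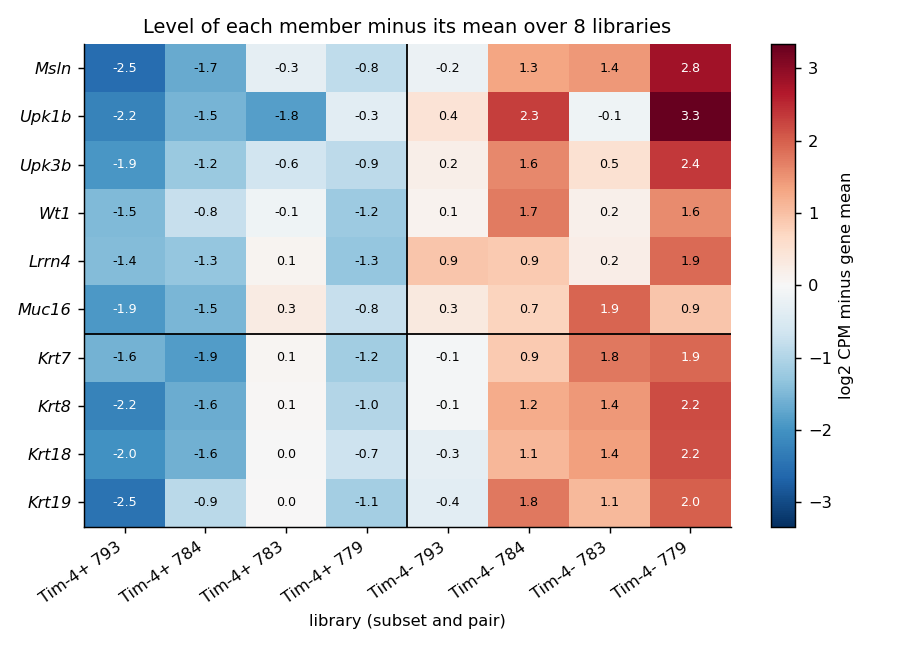
Level of each member (rows) in each library (columns) as log2 CPM minus the gene's mean over the 8 libraries, blue below and red above the mean. Values run from -2.5 in the Tim-4+ library of pair 793 to 3.3 for *Upk1b* in the Tim-4- library of pair 779, and *Krt8*, *Krt18* and *Msln* have closely alike patterns.

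Per kilobase of exon, the keratins *Krt19* and *Krt18* led in both subsets. The length used joins all annotated exons of a gene, and can exceed that of the transcript expressed. It was 7049 bases for *Krt7* and 1437 to 1958 bases for the other keratins. The order below depends on this length, and its part in the gaps between genes was not tested. In Tim-4- TAMs the order of levels was *Krt19* (166 ± 92.3 CPM per kb, SD, n = 4), *Krt18* (92.8 ± 56.0), *Upk3b* (80.0 ± 55.0), *Krt8* (61.4 ± 34.5), *Upk1b* (48.4 ± 47.5), *Msln* (34 ± 27.3), *Wt1* (22.1 ± 12.4), *Krt7* (4.86 ± 2.58), *Lrrn4* (3.50 ± 1.77) and *Muc16* (0.976 ± 0.521). Neighbors in this order were within 1 SD of each other, except that *Wt1* stood above *Krt7* and *Lrrn4* above *Muc16* by more than either SD. In Tim-4+ TAMs the order was the same at both ends, from *Krt19* (35.1 ± 22 CPM per kb, SD, n = 4) to *Muc16* (0.269 ± 0.192), but *Wt1* (5.91 ± 2.51) came before *Msln* (4.80 ± 2.93) and *Upk1b* (4.53 ± 2.89), all within their spread.

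Ratios of 2 members within a library do not depend on depth or scaling. *Krt8* had 0.705 to 0.999 counts for each *Krt18* count in the 8 libraries, and their centred log2 CPM profiles differed by a root mean square of 0.155. The next closest members were *Msln* and *Krt8*, 1 from each set, at 0.284, and the farthest were *Upk1b* and *Muc16*, both mesothelial, at 1.47. *Krt8* over *Krt19* was lowest in pair 784 in both subsets, at 0.226 in Tim-4+ and 0.263 in Tim-4- TAMs, against 0.393 to 0.488 in the other libraries. *Msln* over *Upk1b* was 3.95 and 4.10 in the Tim-4+ and the Tim-4- library of pair 783 and between 0.688 and 1.24 elsewhere. *Muc16* over *Upk1b* was 2.18 and 2.17 in the same 2 libraries and between 0.0955 and 0.624 elsewhere. Both libraries of pair 783 thus had nearly the same mix of these 3 genes, whereas in pairs 784 and 779 *Muc16* over *Upk1b* was lower in Tim-4- TAMs (0.171 and 0.0955) than in Tim-4+ TAMs (0.515 and 0.375).

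**Figure D3:**
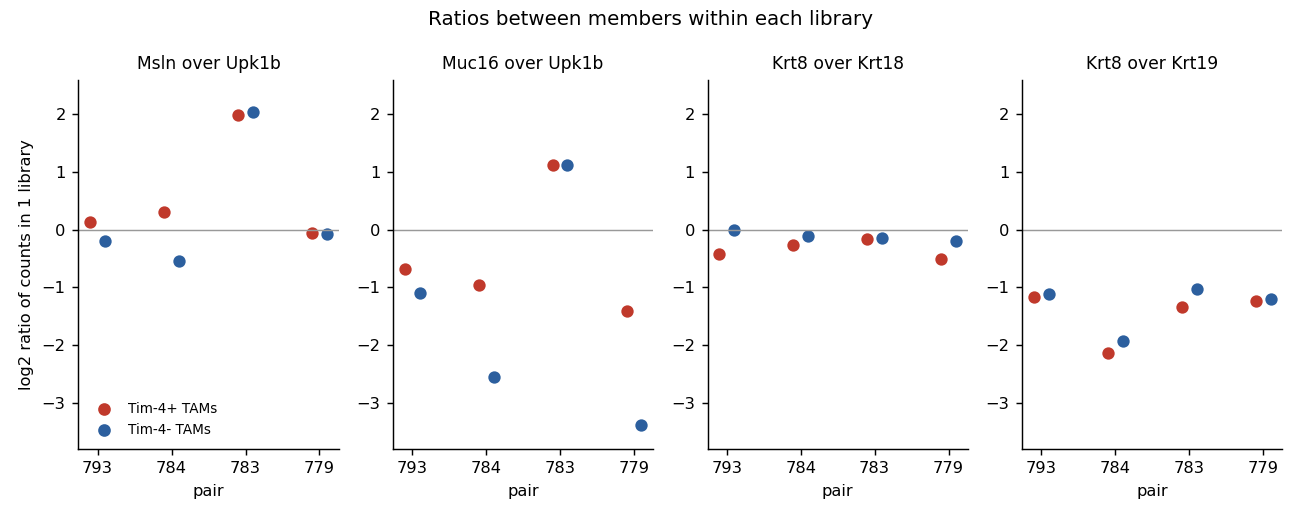
Log2 ratio of the counts of 2 members within each library, by pair, in Tim-4+ (red) and Tim-4- (blue) TAMs. For *Msln* over *Upk1b* both libraries of pair 783 lie near 2 (1.98 and 2.04), those of the other pairs lie between -0.54 and 0.31, and *Krt8* over *Krt18* stays between -0.50 and 0.00.

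Other genes of mesothelial cells, from a list written from general knowledge with earlier results of these data known, went mostly the same way. Of 11 genes 9 were tested, and edgeR called 6 lower and 0 higher in Tim-4+ TAMs, against 5.79% and 3.8% of all tested genes. In either direction 7 had an unadjusted p under 0.05, and the median log2 fold change was -1.98. The called genes were *Cldn15* (-2.74, a claudin of leaky epithelia), *Bnc1* (-2.50) and *Bnc2* (-1.73, both basonuclin zinc finger proteins), *Podxl* (-2.16, a sialomucin), *Gpm6a* (-2.07, a membrane glycoprotein) and *Nkain4* (-1.98). *Efemp1* (-0.91, adjusted p = 0.265) and *Rspo1* (-1.05, adjusted p = 0.283) did not pass the test, and *Aldh1a2*, which makes retinoic acid, was at 0.91 (adjusted p = 0.0594). *Calb2*, which encodes the mesothelial marker calretinin, had 0 counts in all 8 libraries, and *Pdpn* had at most 7. Without pair 784, 0 of the 9 were called (6 lower with an unadjusted p under 0.05), without the pair number 1 was, and without pair 779 or pair 793 1 was. DESeq2 with the pair block called 6. Of all genes, 0.316%, 0.474%, 1.60%, 2.38% and 8.46% were called lower in these fits, in that order.

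Genes of epithelial junctions and epithelial fate had few reads. Summed over 16 genes they reached 12.2 to 27.5 CPM in Tim-4+ TAMs and 17.6 to 46.2 CPM in Tim-4- TAMs. Of the 10 tested, 6 were called lower and 1 higher, against 5.79% and 3.8% of all tested genes, with a median log2 fold change of -1.52. The desmosome genes *Pkp2* (-2.24) and *Dsp* (-2.16), the epithelial transcription factor *Elf3* (-2.15), the splicing regulator *Esrp2* (-1.79), the adhesion molecule *Epcam* (-1.71) and *Perp* (-1.34) were lower. *Ocln*, which encodes the tight junction protein occludin, was higher (2.98, adjusted p = 0.0232), at 8.80, 2.24, 2.05 and 4.55 CPM in Tim-4+ TAMs and 2.40, 0.219, 0.510 and 0.0921 CPM in Tim-4- TAMs. *Cdh1*, which encodes E-cadherin, was near 1 CPM (0.184 to 3.29 CPM) and did not pass the test (-0.54, adjusted p = 0.462), nor did *Dsg2* and *Pkp3*. *Esrp1* had 0 counts in all libraries. Without pair 784, edgeR called 0 of these genes lower (6 with an unadjusted p under 0.05), as without the pair number (3 with an unadjusted p under 0.05). It called 1 without pair 779 and 2 without pair 793, and DESeq2 with the block called 6. The shares of all genes called lower were 0.316%, 0.474%, 1.60%, 2.38% and 8.46%, in the order of these fits.

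Most of the other 49 keratin genes had few or no reads. No library had more than 3 counts for 34 of them, and 3 were tested. *Krt15*, too low to be tested, had 1, 8, 5 and 5 counts in Tim-4+ TAMs and 6, 124, 22 and 35 counts in Tim-4- TAMs. *Krt14*, a keratin of basal epithelial cells, was lower in Tim-4+ TAMs (log2 fold change -2.22, SE 0.42, adjusted p = 0.0161). Its level was 0.0210, 0.220, 8.48 and 0.333 CPM in Tim-4+ TAMs and 0.704, 0.929, 21.7 and 1.83 CPM in Tim-4- TAMs, high in both libraries of pair 783 and low in the other six. The fold of Tim-4- over Tim-4+ TAMs was smallest in pair 783 (2.56), and without that pair *Krt14* was still called (-2.78, adjusted p = 0.0095). *Krt80* was the reverse of the members, higher in Tim-4+ TAMs at 332, 306, 345 and 417 CPM against 247, 110, 190 and 154 CPM (log2 fold change 1.05, SE 0.19, adjusted p = 0.0141), and scaled by total counts it was at 0.69, under the 2-fold rule. *Krt10* did not pass the test (0.35, adjusted p = 0.596). Neither *Krt14* nor *Krt80* was called without pair 784, without pair 779 or without the pair number.

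**Figure D4:**
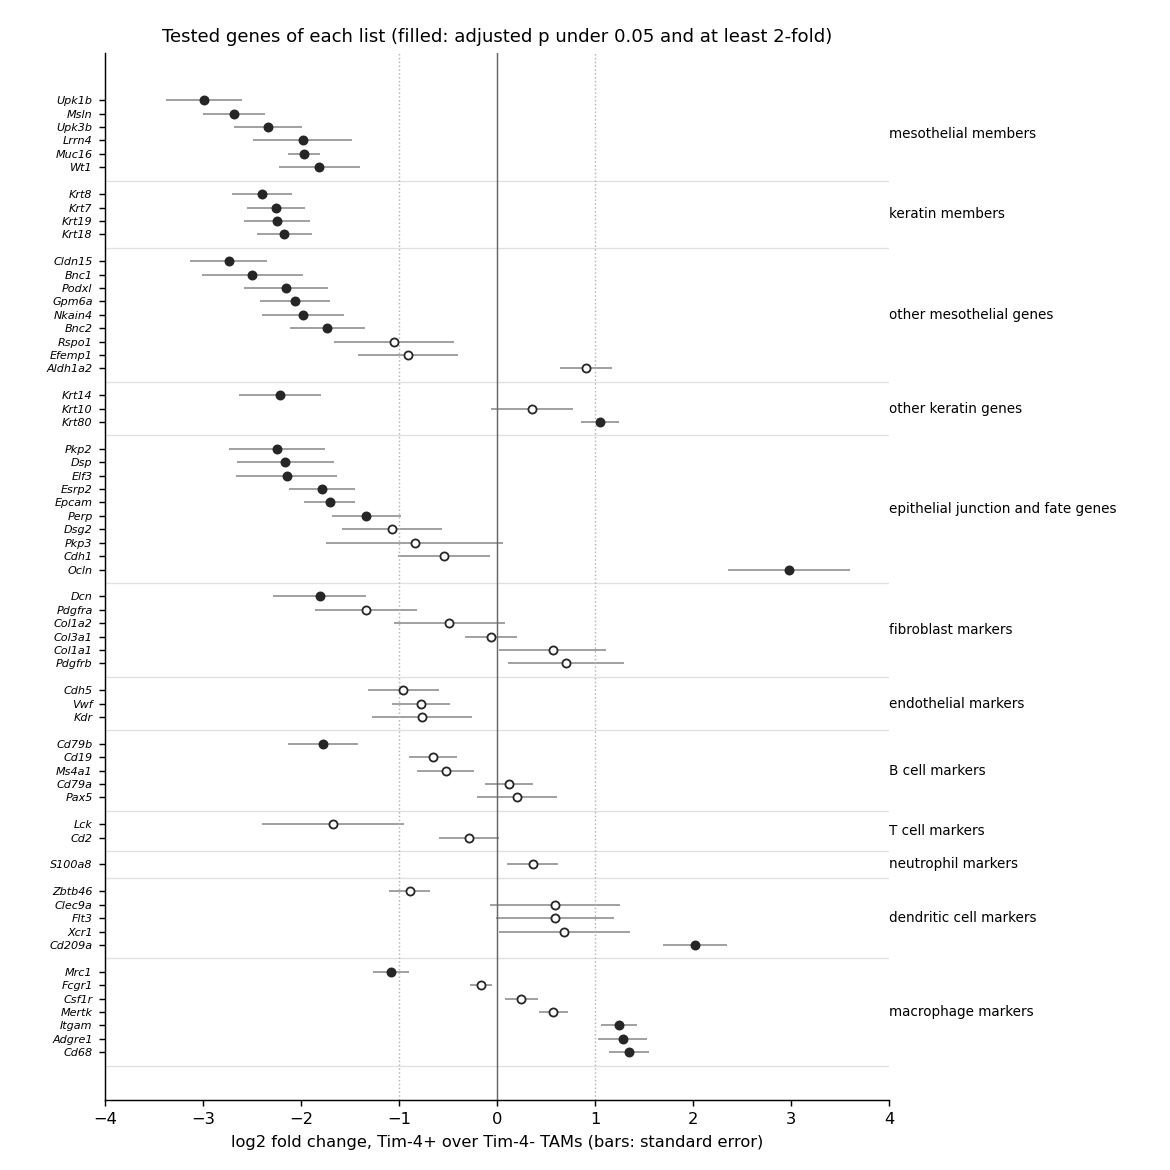
Log2 fold change of Tim-4+ over Tim-4- TAMs (points, bars 1 standard error) for the tested genes of each list, filled where the adjusted p was under 0.05 and the change at least 2-fold. The 10 members lie between -2.99 and -1.82, most other mesothelial genes lie beside them, and most markers of other cell types lie nearer to 0.

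Markers of further cell types that could be in the samples are given by list, where 5.79% of all tested genes were called lower and 3.8% higher. Of 7 fibroblast markers 6 were tested and 1 was called lower, *Dcn*, a matrix proteoglycan also made by mesothelial cells, at 10.5, 20.2, 53.6 and 19.4 CPM in Tim-4+ TAMs and 31.4, 115, 57.4 and 152 CPM in Tim-4- TAMs (log2 fold change -1.81, adjusted p = 0.0459). *Pdgfra* was at -1.34 (adjusted p = 0.126), lower in Tim-4+ TAMs in 3 pairs, and 2 of the 6 tested had an unadjusted p under 0.05. The collagen gene *Col1a1* was at 0.56 (adjusted p = 0.513), and the summed fibroblast markers were 19.6 to 90.8 CPM in Tim-4+ and 49.96 to 173 CPM in Tim-4- TAMs. Endothelial markers summed to 1.20 to 5.21 CPM and 3.35 to 7.72 CPM with 0 of 3 called in either direction (2 with an unadjusted p under 0.05). B cell markers summed to 5.35 to 15.1 CPM and 10.4 to 17.9 CPM, and 1 of 5 was lower (*Cd79b*, -1.78, adjusted p = 0.0175). T cell markers reached at most 3.35 CPM with 0 of 2 called, neutrophil markers reached at most 3.59 CPM with 0 of 1 called, and for both lists 0 had an unadjusted p under 0.05. Of 5 dendritic cell markers, *Cd209a* was higher in Tim-4+ TAMs (2.02, adjusted p = 0.0104), *Zbtb46* was lower by less than 2-fold (-0.89, adjusted p = 0.0261), and the list summed to 11.6 to 15.9 CPM and 8.18 to 16.02 CPM. Among the macrophage markers *Cd68* (1.34), *Adgre1* (1.28) and *Itgam* (1.24) were higher and *Mrc1* (-1.09) lower in Tim-4+ TAMs. Not called were *Mertk* (0.57, adjusted p = 0.0388, under 2-fold), *Csf1r* (0.25, adjusted p = 0.353) and *Fcgr1* (-0.17, adjusted p = 0.359). The part of these cell types in the members' levels was not tested.

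Among all genes other than the members, those whose profile over the 8 libraries was most like the mean of the 6 mesothelial genes were *Kirrel* (root mean square difference of centred log2 CPM 0.12), *Plat* (0.14), *Plekhh2* (0.19), *B4galt4* (0.19) and *Nbl1* (0.20), where the median of 13002 genes compared was 1.36. *Kirrel* encodes an adhesion protein of the immunoglobulin superfamily and *Plat* the tissue plasminogen activator. *Kirrel* was at 8.09, 12.8, 25.4 and 13.8 CPM in Tim-4+ TAMs and at 34.7, 84.2, 47.7 and 126 CPM in Tim-4- TAMs. For the 4 keratins the most alike were *Tspan8* (0.18), *Pkia* (0.19), *Sema3b* (0.21), *Gpm6a* (0.21, also among the other mesothelial genes above) and *Ror1* (0.25), with a median of 1.43. *Tspan8*, a tetraspanin of epithelial cells, was at 4.68, 7.92, 21.1 and 8.61 CPM in Tim-4+ TAMs and at 17.4, 50.04, 40.1 and 71.3 CPM in Tim-4- TAMs. These likenesses describe 8 libraries that share the sort and the pairs, and carry no test.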

How the data were processed

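RNA from 4 Tim-4+ and 4 Tim-4- TAM libraries was sequenced in 2 lanes each. The authors depleted ribosomal RNA, prepared stranded libraries and read them paired-end for 50 cycles. The deposited values are counts of reads on each gene, made by the authors for each lane and not normalized. The submitters' processing notes name FastQC 0.11.3, TopHat2 2.0.13, Cufflinks and Cuffdiff 2.2.1 with GRCm38, whereas the methods name a human reference. The read counter and its strand setting are not given in the sources used here, and reads aligned to several places were set aside.

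The 2 lanes were summed here to 1 replicate. In lane 1 of pair 793, Tim-4- TAMs, genes are given by symbol, and this lane was joined by order, where 96.8% of 53704 symbols matched, including all 10 members. In 1 lane (Tim-4- TAMs of pair 779, lane 2) 9.11% of reads were set aside as not unique, against 20.3% to 24.5% in the other lanes that give this number, and leaving this lane out was added as an alternative after seeing the data. Coordinates are from GENCODE M21 (98.6% of identifiers found) and promoter sequences from RefSeq (GRCm38.p6).

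The quasi-likelihood test of edgeR 4.0.16 (R 4.3.3) was run on genes reaching 10 counts in 4 or more libraries, with TMM factors (0.833 to 0.947 in Tim-4+ and 1.05 to 1.18 in Tim-4- TAMs), the pair as a block and p-values adjusted after Benjamini and Hochberg. The standard error is the log2 fold change over the square root of F. The labels give the pair numbers and the study describes the subsets as paired. Another listing of these libraries by the study appears to run through the pair numbers in reverse, so a number here is the one in the labels, while which libraries form a pair is the same in both. After the subset means were removed, libraries of the same number correlated across genes with r from 0.277 to 0.498. Alternatives were other scalings and count filters, DESeq2 1.42.0, no pair block, lane 2 only, other treatment of the symbol-listed lane, and each pair left out. The calculations were tested on simulated data. The members and lists were chosen with earlier results of these data known. Named besides members are *Timd4*, list genes (all that were called, and the ends of each list) and the 5 genes most like each set (mean of at least 1 CPM, root mean square difference of log2 CPM with a prior count of 2). *Krt10*, *Krt15*, *Dsg2*, *Pkp3*, *Calb2*, *Pdpn*, *Pdgfra*, *Csf1r*, *Fcgr1*, *Mertk*, *Esrp1* and *Krt17* were chosen after their values were seen.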

Additional observations from a re-analysis of the deposited data

Results flagged for a closer look

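A sample stood far from the other 3 of its group in 8 of the 122 groups of 4 libraries checked (10 members and the other tested genes of the lists, in each subset). The limit used marks about 5% of groups by chance where values are independent and normally distributed. The groups share the same libraries and the CPM values were not checked for normality, so this rate is only a rough guide. All 8 were libraries of pair 783. *Lrrn4* was at 6.45 CPM in the Tim-4+ library of pair 783 and at 2.21 to 2.46 CPM in the other Tim-4+ libraries, the only such group among the members. *Krt14* was at 8.48 CPM in the Tim-4+ library of pair 783, against 0.0210 to 0.333 CPM in the others, and at 21.7 CPM in the Tim-4- library, against 0.704 to 1.83 CPM. *Elf3* was likewise high in both, at 2.67 CPM in Tim-4+ TAMs (others 0.0208 to 0.140 CPM) and 9.90 CPM in Tim-4- TAMs (others 0.165 to 1.01 CPM). In the Tim-4+ library of pair 783 alone, *Efemp1* was at 13.3 CPM (others 2.71 to 3.68 CPM), *Dsp* at 4.31 CPM (others 0.977 to 1.12 CPM) and *Col1a1* at 1.97 CPM (others 0.395 to 0.567 CPM).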

How the results depend on the processing

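The log2 fold change of each of the 10 members was below 0 under all 14 alternatives (140 values), and 111 of these values were still called. With DESeq2 size factors, DESeq2, total counts, a filter of 1 CPM, lane 2 only, both other treatments of the symbol-listed lane, and without lane 2 of the Tim-4- library of pair 779 (chosen after seeing the data), all 6 mesothelial genes and all 4 keratins were called. In these fits 5.69% to 11.5% of all genes were called lower. Without a count filter, edgeR called 1 of 6 mesothelial genes, 2 of 4 keratins, 1 other mesothelial gene and 2 other keratins. That fit called 2.62% of all genes lower, and the cause of the fewer member calls was not tested. Without the pair block 207 genes were called (127 higher, 80 lower), among them 1 mesothelial gene, 0 keratins, 1 other mesothelial gene, 0 other keratins (0 lower with an unadjusted p under 0.05, and DESeq2 with the block called 1) and 0 epithelial genes, and the common biological coefficient of variation was 0.396 in place of 0.261. Leaving out 1 pair at a time, which leaves 3 pairs, gave 118 (without 784) to 2221 (without 783) called genes, 1 to 6 mesothelial genes, 0 to 4 keratins, 0 to 8 other mesothelial genes, 0 to 1 other keratins and 0 to 6 epithelial genes. Each lowest count came without pair 784, and for other keratins without pair 779 too. *Wt1* and *Lrrn4* were also not called without pair 779 (adjusted p = 0.107 and 0.135) or without pair 793 (0.0992 and 0.144). The lowest count of any member was 105, for *Lrrn4* in the Tim-4+ library of pair 793, and the part of depth in the calls was not tested.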

Other observations

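Several epithelial genes stood highest in both libraries of pair 783. *Krt17*, a keratin of basal epithelium that was too low to be tested, had 30 counts in the Tim-4+ library and 193 counts in the Tim-4- library of pair 783 and at most 1 count in each of the other six libraries. *Krt14* had 464 and 1703 counts in the same libraries, against 1 to 119 in the others, and *Elf3* had 146 and 777 counts, against 1 to 74. *Epcam* was also highest in this pair in both subsets, at 4.18 CPM in Tim-4+ and 11.2 CPM in Tim-4- TAMs. The ratio of *Muc16* and of *Msln* to *Upk1b* was high in the same 2 libraries. These genes were picked out after their values were seen, and no test was run on them.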
